A study of Homo sapiens with 4 samples.

Results

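The extracellular matrix genes described here were 43 genes chosen by name, 15 collagen genes and 28 other matrix genes of glycoproteins, proteoglycans, elastic fibers and crosslinking enzymes. The 28 include *LRRC15*, the gene of a stromal membrane protein. The count tables of the 4 libraries listed 34241 genes in all, and each of the 43 symbols matched a single Ensembl gene identifier that was present in all 4 tables. The genes were taken by symbol, from a list made with earlier results of these data known.

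Cells were from A375, an established melanoma line of human origin with the BRAF V600E mutation, in RPMI medium with fetal calf serum. S cells were untreated, RV cells had been kept on the BRAF inhibitor vemurafenib, RVC cells on vemurafenib plus the MEK1/2 inhibitor cobimetinib, and RVT cells on vemurafenib plus the MEK1/2 inhibitor trametinib. The drugs were given for 10 to 14 days below their IC50 concentrations and were withdrawn 24 h ahead of cell capture. The paper describes the treated cultures as resistant, with higher IC50 values for their drugs than in S. Each condition was 1 culture and 1 droplet library (10x Genomics Chromium, kit version 2, 10000 cells loaded), so that differences between conditions have no replicate check and no test.

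After filtering, the libraries held 4177 to 8445 cells, and the median cell had 8807.5 UMIs (unique molecular identifiers, each standing for 1 captured transcript) in S and 11553 in RV, with 3959 in RVC and 2871 in RVT. The tables of S and RV list 1 set of genes and those of RVC and RVT another, so that the annotations differed. Any 2 libraries shared between 38 and 149 cell barcodes, at most 1.61% of either. Of the markers of the melanocyte lineage, *MLANA*, *TYR* and *DCT* had at most 2 UMIs in every library, and the sum of 10 markers was 206 CPM (UMIs per 1000000 UMIs of the library) in S and 84.3 in RV, with 16.5 in RVC and 80.3 in RVT. The neural crest transcription factor gene *SOX10* had 86.3 CPM in S, 39.9 in RV, 19.4 in RVT and none in RVC. Levels are given as CPM with exact Poisson intervals at 95%, and shares of cells with exact Clopper-Pearson intervals at 95%. Both cover counting error only. Where 4 values follow each other without names, they are those of S, RV, RVC and RVT in this order. For a count of 0, a limit of 3 UMIs (1-sided) was used in place of the wider 2-sided interval, and folds given as at least a value rest on it. The limit is 0.0512 CPM in S and 0.0573 in RV, with 0.0910 in RVC and 0.118 in RVT. Each UMI is 1 molecule tagged at its 3' end, so that levels of different genes were compared as CPM without a correction for length.

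The extracellular matrix is built from proteins that cells secrete and assemble outside. Fibrillar collagens form the load-bearing fibrils of connective tissue, network-forming collagen IV and the laminins form basement membranes, and proteoglycans such as lumican and decorin bind collagen fibrils and regulate their spacing. Lysyl oxidases crosslink the collagens, and lysyl hydroxylases modify lysines that take part in the crosslinks. Connective tissue matrix is made mainly by fibroblasts, and melanoma cells with a mesenchymal, dedifferentiated state are known to express part of these genes.

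Promoter sequences from RefSeq (GRCh38.p14) were at hand for 32 of the 43 members, each window reaching from 250 bases before the transcription start to 50 bases after it. *COL1A1*, *COL1A2*, *COL3A1*, *COL5A2*, *COL8A1*, *COL6A1*, *COL9A3*, *LUM*, *DCN*, *EFEMP1* and *LOXL2* had no entry. Windows of 4 members are shown. Of these, 2 are a shared promoter whose genes had different levels, and the other 2 belong to genes that were high in RVC alone. *OGN*, which was nearly restricted to RVC as well, had windows that are not shown. *COL4A1* and *COL4A2* lie head to head on chromosome 13, at 110148963 to 110307233 on the minus strand and at 110305812 to 110513209 on the plus strand. Their windows chr13:110307108-110307407 (minus strand) and chr13:110307034-110307333 (plus strand) have 226 bases in common. *LRRC15* (chr3:194369694-194369993) and *POSTN* (chr13:37598719-37599018) are on the minus strand. Capitals mark matches, on either strand, to 7 motifs that were searched: TGANTCA for AP-1, GGAATG for TEAD factors, GGGCGG for the GC box, CAGAC for SMAD factors, TATAAA for the TATA box, the CCAAT box itself, and ACGTG for the core of the hypoxia response element.
COL4A1: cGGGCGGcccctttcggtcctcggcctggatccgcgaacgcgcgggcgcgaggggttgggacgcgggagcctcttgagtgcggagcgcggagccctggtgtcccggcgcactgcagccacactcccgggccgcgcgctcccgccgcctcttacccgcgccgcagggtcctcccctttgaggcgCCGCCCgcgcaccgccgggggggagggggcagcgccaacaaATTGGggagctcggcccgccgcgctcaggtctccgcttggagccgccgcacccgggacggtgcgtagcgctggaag
COL4A2: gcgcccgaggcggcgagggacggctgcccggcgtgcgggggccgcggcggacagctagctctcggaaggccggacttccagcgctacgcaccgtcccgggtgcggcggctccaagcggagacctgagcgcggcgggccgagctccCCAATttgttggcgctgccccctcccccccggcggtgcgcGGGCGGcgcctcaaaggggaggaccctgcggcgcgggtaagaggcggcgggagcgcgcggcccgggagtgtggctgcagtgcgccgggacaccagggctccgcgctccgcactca
LRRC15: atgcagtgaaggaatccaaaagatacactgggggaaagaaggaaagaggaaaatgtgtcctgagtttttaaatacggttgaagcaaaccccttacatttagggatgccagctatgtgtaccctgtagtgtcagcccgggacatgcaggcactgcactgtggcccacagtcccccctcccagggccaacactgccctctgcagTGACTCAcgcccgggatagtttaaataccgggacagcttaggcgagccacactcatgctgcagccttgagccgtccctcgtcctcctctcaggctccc
POSTN: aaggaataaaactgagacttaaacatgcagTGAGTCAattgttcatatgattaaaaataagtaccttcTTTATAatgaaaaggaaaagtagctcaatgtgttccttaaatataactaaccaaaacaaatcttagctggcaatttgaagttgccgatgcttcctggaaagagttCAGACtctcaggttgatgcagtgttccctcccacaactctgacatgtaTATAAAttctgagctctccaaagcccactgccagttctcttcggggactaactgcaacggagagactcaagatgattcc

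The windows of *COL4A1* and *COL4A2* held GC boxes and a CCAAT box, and the CCAAT box and a GC box of the part in common appear in both sequences in opposite orientation. The *LRRC15* window held an AP-1 match that begins 48 bases before the start, and the *POSTN* window one that begins 220 bases before it. The windows of *OGN* held no AP-1 match, so such a match was not common to the members high in RVC alone. Of the 32 members with a window, *LRRC15*, *POSTN* and *MFAP2* had an AP-1 match, 7.69% of the 39 windows of members against 7.71% of all 35116 windows, so that the share among members was that of all promoters. GC boxes were in 66.7% of member windows against 45.0% of all windows, and the median GC content was 68.3% in member windows, 74.2% in collagen windows and 58.7% in all windows. A match is a sequence description and was not tested as a binding site.

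The mean level over the 4 libraries reached 3 CPM for 33 members, and 30 of the 43 reached 10 CPM in some library. A ratio was called higher or lower past 2-fold. A gene that is high in 1 library alone passes such a filter only by being different, so the counts describe the list and support nothing about it. In RV over S, 0 collagens were at least 2-fold higher and 3 of 10 were lower (*COL5A2*, *COL4A1* and *COL8A1*), and of 20 other members 3 were higher and 3 lower. With equal weight of cells 1 collagen stayed lower, since *COL5A2* and *COL4A1* had log2 ratios of -0.95 and -0.97. Among the other members *VCAN*, with -1.03, then had -0.97, and *POSTN*, one of the 3 higher from 2 and 4 UMIs, had -0.068. *LOXL2*, with 0.98, then had 1.05 and was past 2-fold higher. Of all 10290 genes compared in the same way 2.47% were higher and 2.03% lower. In RVC over S, 4 of 11 collagens were higher and 2 lower, and 9 of 22 other members were higher and 6 lower, beside 23.0% of all genes higher and 21.9% lower. After centring within bins of GC content the 9 and 6 became 10 and 4, and 6 collagens in place of 4 were higher. In RVT over S, 6 of 11 collagens were higher and 4 lower, and 14 of 21 other members were higher and 1 lower, beside 32.5% and 21.7% of all genes. Among the 14 was *OGN*, with a bound of 1.62 from 4 UMIs in RVT and none in S. It reached 3 CPM in the mean through RVC. In RVT over S, GC centring gave 5 collagens higher and 3 lower, and 13 other members higher and 1 lower. TMM factors gave 5 collagens higher and 5 lower, and 13 other members higher and 2 lower. The share of all genes was not computed after centring, with TMM factors or with equal weight of cells. The 3 comparisons share the S library. Of the 33 members 6 were past 2-fold above S in 1 treated library and past 2-fold below it in another, as were 2.67% of 10302 genes. In RVT over RVC, 4 of 11 collagens were higher and 4 lower, and 10 of 22 other members were higher and 6 lower, beside 19.0% of all genes higher and 11.2% lower.

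**Figure D1:**
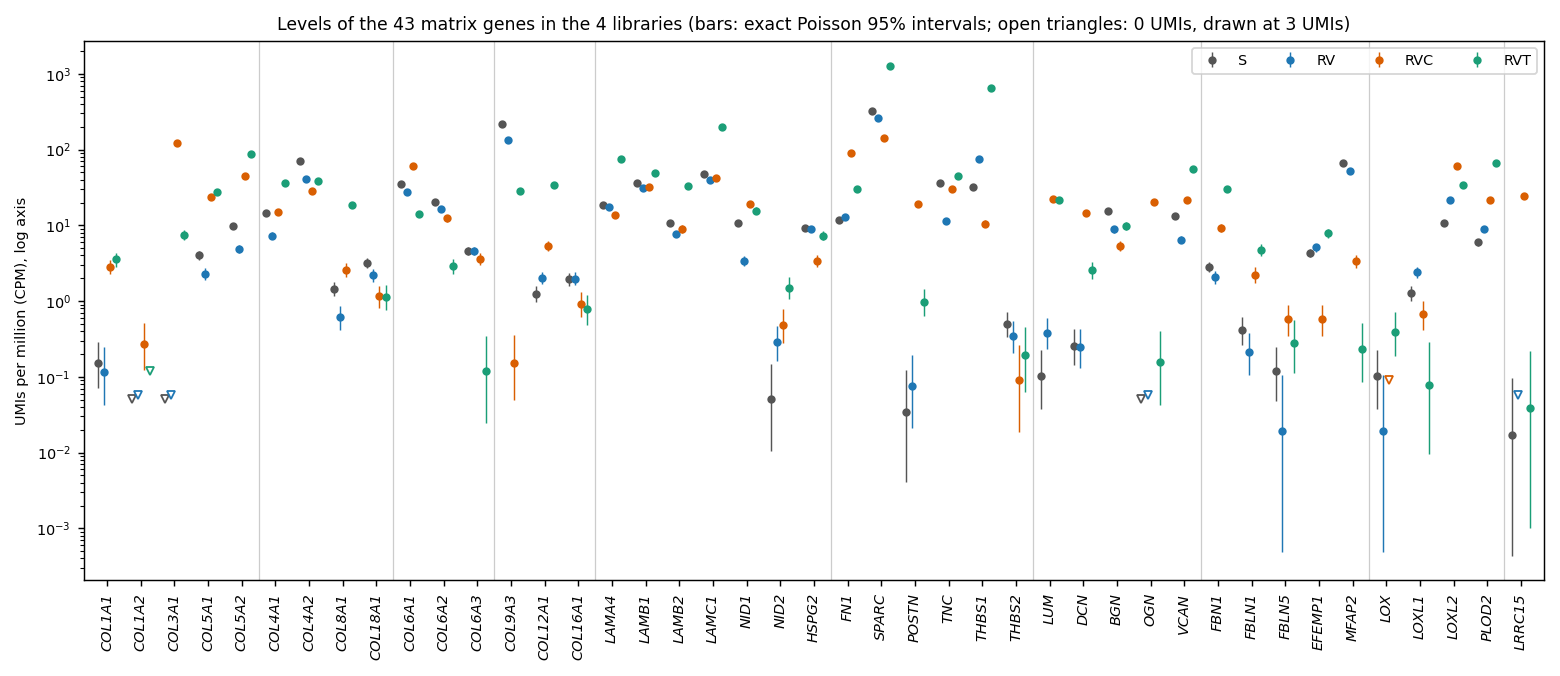
Level of each of the 43 members (x axis, grouped by role, separated by vertical lines) as CPM on a log axis (y) in S, RV, RVC and RVT, 1 library each, with exact Poisson 95% intervals as bars. Open triangles mark genes without a UMI, drawn at the level of 3 UMIs. S and RV lie close together for most members, RVC stands above the other libraries for *COL3A1*, *POSTN*, *OGN* and *LRRC15*, and RVT for *SPARC*, *THBS1* and *LAMC1*.

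All collagens together had 386 CPM in S and 246 in RV, with 324 in RVC and 302 in RVT, and the other members 656, 574, 619 and 2627. Of the 2627 in RVT, *SPARC* gave 1282 and *THBS1* 656. The median log2 ratio of the collagens was -0.74 in RV, 0.83 in RVC and 1.30 in RVT over S, beside 0.02, 0.22 and 0.37 over all genes. That of the other members was -0.15, 0.28 and 1.64. After centring within bins of GC content the median collagen was *COL6A1* at 1.15 in RVC and *COL4A1* at 0.51 in RVT. The order of these medians of ratios to S was thus reversed, but they fall on different genes. In RVT over RVC itself, *COL4A2*, the median collagen, had a log2 ratio of 0.46 before and 0.18 after centring. Scaling by TMM factors moved the medians of all genes to -0.03, 0.00 and -0.15, so that the RVT ratios given below lie above their TMM values by more than those of RVC. Across all genes the log2 ratio also went with the GC content of the 500 bases at the transcript's 3' end, with a Spearman correlation of -0.35 in RVC and -0.41 in RVT over S, 0.00 in RV over S and -0.16 in RVT over RVC. RVC and RVT also had the lower depth and the other annotation, and this difference and that of the drugs cannot be told apart in ratios to S.

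Among the fibrillar collagens, *COL3A1*, which encodes the chain of collagen III, was the member that stood out in RVC. It had no UMI in S or RV, 121 CPM in RVC (117 to 125, 3996 UMIs) and 7.52 in RVT (6.49 to 8.66). Its level in RVC was at least 2368-fold that of S, and in RVT at least 147-fold, and it was 16.1-fold lower in RVT than in RVC (13.9 to 18.7). The collagen V genes *COL5A1* and *COL5A2*, whose chains join in heterotypic fibrils, were high in both combination cultures, RVC and RVT. *COL5A1* had 4.01 CPM in S and 2.31 in RV, with 23.9 in RVC and 27.4 in RVT. *COL5A2* had 9.71 CPM in S and 4.83 in RV, with 44.6 in RVC and 88.6 in RVT, so that RV was 0.497 times S (0.427 to 0.578) and RVT 9.13 times S (8.32 to 10.0). GC centring lowered the log2 ratios of RVT over S from 2.77 to 1.98 for *COL5A1*, from 3.19 to 2.30 for *COL5A2* and, for the bound of *COL3A1*, from 7.20 to 6.31. The collagen I genes were low throughout. *COL1A1* had 0.154, 0.115, 2.85 and 3.54 CPM in S, RV, RVC and RVT, 18.6 times S in RVC (9.38 to 41.9), and *COL1A2* had 9 UMIs in RVC and none in the other 3 libraries. *COL3A1* was thus present in RVC without collagen I at a comparable level.

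*COL3A1* (chromosome 2, 188974320 to 189012746, plus strand) and *COL5A2* (189031896 to 189225312, minus strand) are convergent neighbors with 19.1 kb between them. *COL5A2* had UMIs in all 4 libraries, including S and RV where *COL3A1* had none. Summed over the 5 fibrillar collagens the level was 13.9 CPM in S and 7.25 in RV, with 193 in RVC and 127 in RVT, and *COL3A1* gave 62.8% of the sum in RVC, whereas *COL5A2* gave 69.7% in RVT. The same list was therefore led by different genes in both cultures.

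Collagen IV, the network of basement membranes, had a different course. *COL4A2* had 70.2 CPM in S and 41.2 in RV, with 28.1 in RVC and 38.8 in RVT, and S was thus the highest library for it. *COL4A1* had 14.6, 7.27, 15.2 and 35.9 CPM, with the highest level in RVT. The promoters of both genes, printed above, share 226 bases. *COL4A1* in RVT was 2.46 times S (2.24 to 2.70), a log2 ratio of 1.30 that became 0.78 with TMM factors and 0.51 after centring on GC content, both under 2-fold. *COL4A2* in RVT was 0.552 times S, past 2-fold with TMM factors (log2 ratio -1.37) and after GC centring (-1.28). *COL4A1* and *COL4A2* overlap on opposite strands at their 5' ends, and whether the counting used the strand is not stated. *COL8A1*, a short-chain collagen of subendothelial matrix, had 1.45, 0.611, 2.58 and 18.7 CPM, 12.9 times S in RVT (10.2 to 16.4), with a log2 ratio of 3.69 that became 2.68 after GC centring. *COL18A1*, the source of endostatin, had 3.17, 2.18, 1.15 and 1.14 CPM and did not reach 10 CPM in any library.

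The collagen VI chains, which assemble from *COL6A1*, *COL6A2* and *COL6A3* into beaded filaments, were low in RVT. *COL6A1* had 34.6 CPM in S and 27.5 in RV, with 61.4 in RVC and 14.1 in RVT. *COL6A2* had 20.5, 16.6, 12.3 and 2.87, and *COL6A3* had 4.59, 4.56, 3.64 and 0.118, the latter from 3 UMIs. *COL6A1* was 4.34-fold lower in RVT than in RVC (3.88 to 4.87), *COL6A2* 4.29-fold (3.33 to 5.58), and *COL6A3* had a ratio of 0.0324 (0.00660 to 0.0971). In the ratio to S, the log2 value of *COL6A1* in RVT changed from -1.29 to -0.96 after centring on GC content, under 2-fold. In RVC its log2 value changed from 0.83 to 1.15, past 2-fold. That of *COL6A2* in RVC changed from -0.73 to 1.41 and in RVT from -2.83 to -0.75, whereas RVT over RVC was -2.10 before and -2.20 after centring. *COL6A1* and *COL6A2* are adjacent members of the list on chromosome 21, with 93.0 kb between them.

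Of the collagens that associate with fibrils, *COL9A3*, a chain of the cartilage collagen IX, had the largest level of all collagens in S. It had 220 CPM in S (216 to 224) and 134 in RV, with 0.152 in RVC (5 UMIs) and 28.3 in RVT. RVC was 1450-fold lower than S (621 to 4467) and RVT 7.76-fold lower (7.20 to 8.38). *COL9A3* alone gave 57.0% of all collagen UMIs in S and 54.7% in RV. *COL12A1*, a fibril-associated collagen of tendon and dermis, went the other way with 1.25, 2.02, 5.37 and 34.4 CPM, 27.6 times S in RVT (21.7 to 35.6), with a log2 ratio of 4.79 that became 3.90 after GC centring. *COL16A1*, a minor collagen of the same class, had 1.93, 1.99, 0.910 and 0.787 CPM.

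**Figure D2:**
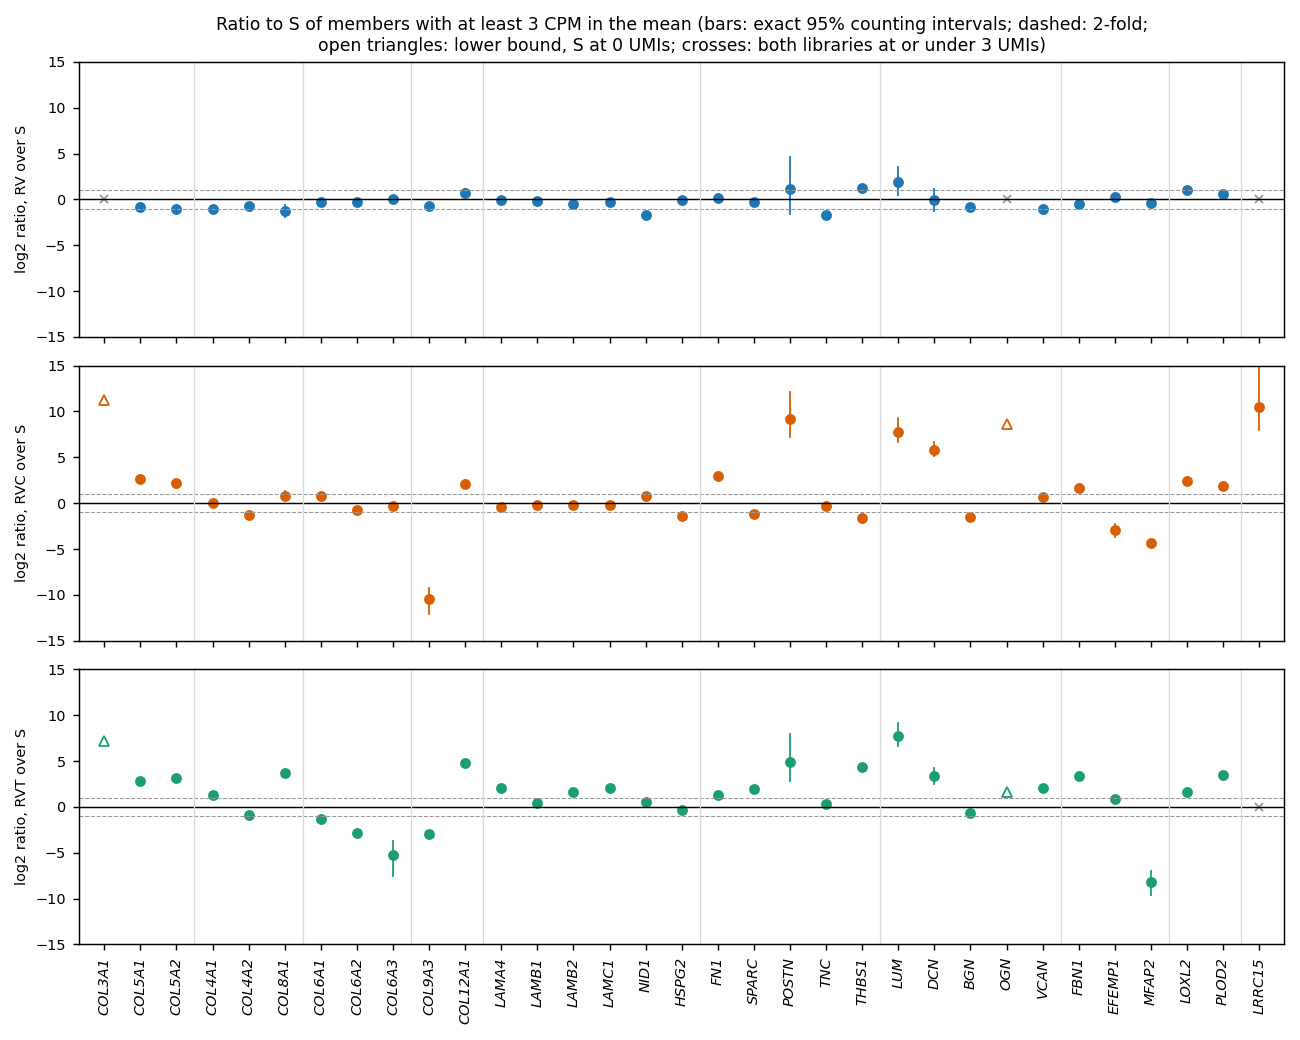
log2 ratio to S (y axis) of the members with at least 3 CPM in the mean (x axis, grouped by role) for RV, RVC and RVT in 3 panels, with exact 95% counting intervals as bars and 2-fold as dashed lines. Open triangles are lower bounds against an S library without a UMI, and crosses mark genes with at most 3 UMIs in both libraries. In RV 21 of the 30 members compared lie within 2-fold and the highest is *LUM* at 1.90, from 6 UMIs in S and 20 in RV, whereas in RVC and RVT *COL9A3* and *MFAP2* lie far below 0 and *LUM*, *POSTN* and *COL3A1* far above it.

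The laminins, the cross-shaped glycoproteins of basement membranes, were highest in RVT. *LAMC1*, the gamma chain of most laminins, had 46.9 CPM in S and 39.2 in RV, with 42.3 in RVC and 198 in RVT, 4.22 times S (4.02 to 4.42). *LAMA4* had 18.7, 17.5, 13.7 and 75.9 CPM, 4.07 times S in RVT (3.77 to 4.38). *LAMB2* had 10.6, 7.64, 8.92 and 32.6, 3.08 times S (2.78 to 3.43). S, RV and RVC lay close together for these 3 chains, and RVT stood apart, although the log2 ratio of *LAMB2* in RVC over S turned from -0.25 to 1.05 after GC centring. In RVT over S, GC centring moved the log2 ratio of *LAMB2* from 1.63 to 3.08, and it lowered that of *LAMC1* from 2.08 to 1.29 and that of *LAMA4* from 2.02 to 1.13. *LAMB1* had 35.7, 31.1, 32.0 and 48.4 CPM, which was within 2-fold of S in all 3 treated libraries, and its RVT ratio lay below 1 with TMM factors (log2 ratio -0.08) and after GC centring (-0.45). *NID1*, which links laminin with collagen IV, had 10.8, 3.40, 18.8 and 15.6 CPM, and RV was 3.19-fold lower than S (2.70 to 3.79). Its log2 ratio of RVT over S turned from 0.52 to -0.26 after GC centring. *HSPG2*, the basement membrane proteoglycan perlecan, had 9.16, 8.97, 3.40 and 7.32 CPM. Its log2 ratio of -1.43 in RVC over S changed sign to 0.71 after centring on GC content, and that of RVT over S turned from -0.32 to 1.76. *NID2*, the paralog of *NID1*, had 0.0512, 0.286, 0.485 and 1.496 CPM.

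Of the adhesive and matricellular glycoproteins, *SPARC*, a collagen-binding protein, had the highest level of all members in each library. It had 321 CPM in S (316 to 325) and 258 in RV, with 142 in RVC and 1282 in RVT. RVC was 0.444 times S (0.430 to 0.459) and RVT 4.00 times S (3.93 to 4.07), which places RVT 9.00-fold above RVC. The log2 ratio of *SPARC* in RVT over S, 2.00, became 1.48 with TMM factors and 1.44 after GC centring. *THBS1*, the angiogenesis inhibitor thrombospondin 1, had 32.5 CPM in S and 74.8 in RV, with 10.5 in RVC and 656 in RVT (646 to 666). RV was 2.30 times S (2.18 to 2.43), RVC 3.10-fold lower and RVT 20.2 times S (19.3 to 21.2). RVT thus exceeded RVC 62.5-fold (56.2 to 69.7).

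*FN1*, the cell-adhesive glycoprotein fibronectin, was highest in RVC. It had 11.8 CPM in S and 13.0 in RV, with 91.1 in RVC (87.9 to 94.4) and 30.0 in RVT. RVC was 7.70 times S (7.09 to 8.38). The RVT ratio of 2.53 (log2 ratio 1.34) fell under 2-fold with TMM factors (0.83) and after GC centring (0.46). *POSTN*, the fibroblast-derived matricellular protein periostin, had 2 UMIs in S, 4 in RV, 19.0 CPM in RVC (17.5 to 20.5) and 0.984 in RVT. The ratio of RVC to S was 556 with an interval of 153 to 4605, wide because S held 2 UMIs (log2 ratio 9.12, and 8.52 after GC centring), and RVT was 19.3-fold lower than RVC (12.9 to 30.1). *TNC*, the anti-adhesive glycoprotein tenascin C, had 36.7, 11.5, 29.9 and 45.0 CPM, with RV 3.18-fold lower than S (2.91 to 3.49). Its log2 ratio of RVT over S turned from 0.29 to -0.50 after GC centring. *THBS2*, a paralog of *THBS1*, had 0.495, 0.344, 0.0910 and 0.197 CPM.

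*LUM*, *DCN* and *OGN* encode small leucine-rich proteoglycans, and all 3 were under 1 CPM in S and RV and higher in RVC. *LUM* had 0.102 CPM in S and 0.382 in RV, with 22.6 in RVC (21.0 to 24.2) and 21.8 in RVT (20.03 to 23.7), with a ratio of RVT to RVC of 0.966 (0.864 to 1.08). *DCN*, its neighbor on chromosome 12 at a distance of 28.7 kb and on the same strand, had 0.256, 0.248, 14.7 and 2.56 CPM, 5.75-fold lower in RVT than in RVC (4.43 to 7.57). *OGN*, the related osteoglycin, had no UMI in S or RV, 20.3 CPM in RVC (18.8 to 21.9) and 4 UMIs in RVT, so that RVC was at least 397-fold above S. In CPM *LUM* was at a similar level in both cultures, *DCN* was lower in RVT, and *OGN* was nearly restricted to RVC in these 4 libraries. The log2 ratio of *LUM* in RVT over RVC, -0.05, became -0.35 with TMM factors and -0.47 after GC centring. *BGN*, a proteoglycan of the same family, was highest in S at 15.5 CPM, with 8.82 in RV, 5.34 in RVC and 9.84 in RVT. Its RVC log2 ratio of -1.54 became -0.24 after GC centring, and its RVT log2 ratio turned from -0.65 to 0.80. *VCAN*, the large proteoglycan versican, had 13.2, 6.47, 21.6 and 55.3 CPM, 4.19 times S in RVT (3.84 to 4.58). In RVT over S, GC centring lowered the log2 ratio of *VCAN* from 2.07 to 1.07, that of *LUM* from 7.73 to 6.85 and that of *DCN* from 3.32 to 2.65, and in RVC over S it lowered the bound of *OGN* from 8.63 to 8.03.

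*LRRC15*, a membrane protein of stromal fibroblasts and mesenchymal tumor cells, was a gene of RVC alone in these libraries. It had 1 UMI in S, none in RV, 810 UMIs or 24.6 CPM in RVC (22.9 to 26.3) and 1 UMI in RVT. The ratio of RVC to S was 1440 (258 to 56948). RVC cells with an *LRRC15* UMI were 9.17% of all RVC cells and 3.34% after thinning every cell to 1500 UMIs (2.93 to 3.78).

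The genes of elastic fibers and microfibrils did not move together. *FBN1*, the microfibril protein fibrillin 1, had 2.83, 2.06, 9.16 and 30.1 CPM in S, RV, RVC and RVT, 10.6 times S in RVT (8.98 to 12.7). *MFAP2*, a microfibril-associated glycoprotein, had 67.0, 52.4, 3.34 and 0.236 CPM and was 20.1-fold lower in RVC (16.6 to 24.5) and 284-fold lower in RVT (130 to 774) than in S. After GC centring its log2 ratio was -3.03 in place of -4.33 in RVC and -6.70 in place of -8.15 in RVT, and that of *FBN1* in RVT was 2.53 in place of 3.41. *EFEMP1*, the fibulin 3 gene, had 4.32, 5.10, 0.576 and 7.83 CPM, and its log2 ratio of RVT over S turned from 0.86 to -0.14 after GC centring. The fibulin genes *FBLN1* and *FBLN5*, whose proteins bind elastic fibers, had 0.409, 0.210, 2.21 and 4.68 CPM and at most 0.576 CPM. *MFAP2* had 43.3% of S cells with a UMI and 6 UMIs in all of RVT.

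Of the enzymes of collagen crosslinking and lysine modification, *LOXL2* is a lysyl oxidase that acts on collagen IV. It had 10.8 CPM in S and 21.3 in RV, with 59.8 in RVC and 33.7 in RVT, 1.97, 5.52 and 3.12 times S. It overlaps *ENTPD4* on the same strand, and how reads of the overlap were counted is not stated. *PLOD2*, the lysyl hydroxylase of collagen telopeptides, had 5.95, 9.05, 21.5 and 66.7 CPM, 11.2 times S in RVT (9.97 to 12.6). After GC centring the log2 ratio of RVT over S was 2.81 in place of 3.49 for *PLOD2* and 1.02 in place of 1.64 for *LOXL2*. *LOX* had at most 10 UMIs and *LOXL1* at most 2.39 CPM in any library.

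The genes that fold and process collagen were a list of 24 that was chosen for function. Of 19 that reached 3 CPM in the mean, 6 were at least 2-fold higher and 2 lower in RVC than in S, 8 higher and 3 lower in RVT, and 0 in either direction in RV, where 2.47% of all genes were higher and 2.03% lower. Over all genes, 23.0% were higher and 21.9% lower in RVC, and 32.5% and 21.7% in RVT, beside 31.6% and 10.5% of the list in RVC and 42.1% and 15.8% in RVT. The prolyl 4-hydroxylase genes *P4HA1* (14.9, 14.2, 44.5 and 43.5 CPM in S, RV, RVC and RVT) and *P4HA2* (8.36, 11.4, 54.7 and 39.6) were higher in both, whereas *P4HB*, their partner subunit, was lower (148, 144, 67.0 and 63.6). *SERPINH1*, the collagen chaperone HSP47, had 26.6, 17.0, 64.5 and 59.5 CPM. The lysyl hydroxylase *PLOD1* (35.7, 39.4, 79.7 and 204 CPM) and the lysyl oxidase *LOXL3* (16.4, 15.7, 23.7 and 107) were highest in RVT, and *LOXL4* had 25.5, 29.9, 1.00 and 8.27. Enzymes of the same family therefore had different directions in these cultures. These levels are given without TMM factors or GC centring, which were looked at for the 43 members only.

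Of 18 further collagens 4 reached the filter. Over S, 2 of them were higher and 0 lower in RV, beside 2.47% and 2.03% of all genes. In RVC 2 were higher and 1 lower, beside 23.0% and 21.9%, and in RVT 1 was higher and 0 lower, beside 32.5% and 21.7%. *COL7A1*, the anchoring fibril collagen, had 2.54, 3.11, 30.3 and 2.204 CPM and was high in RVC alone. Of 50 further matrix glycoproteins and proteoglycans, 19 reached the filter. Over S, 3 were higher and 2 lower in RV, 4 higher and 7 lower in RVC, and 9 higher and 1 lower in RVT. In RV 15.8% of the list were higher and 10.5% lower, beside 2.47% and 2.03% of all genes. In RVC 21.1% of the list were higher and 36.8% lower, beside 23.0% and 21.9% of all genes. In RVT 47.4% were higher and 5.26% lower, beside 32.5% and 21.7%. *TGFBI*, an adhesive collagen-binding protein, had 221, 166, 720 and 343 CPM, and *SPP1*, the integrin ligand osteopontin, 12.8, 6.78, 85.7 and 11.2. *MGP*, the calcification inhibitor matrix Gla protein, had 2.32, 1.64, 0.425 and 163 CPM, and its RVT level was 70.1 times that of S. *ECM1* had 4.30, 7.46, 16.5 and 27.4 CPM.

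Fibroblast markers were looked at beside these levels, since collagen III, periostin, decorin and osteoglycin are also products of fibroblasts. Of 10 markers 9 had a UMI in RVC and 8 in RVT, and their sum was 197 CPM in S and 433 in RV, with 161 in RVC and 269 in RVT, in which *S100A4* gave at least 52.1%. *PDGFRA* had 0.307, 0.134, 20.05 and 1.30 CPM, *FAP* 0.102, 0.0191, 6.40 and 0.905, and *C1S* 0.290, 0.210, 17.6 and 73.8. *PDPN* had no UMI in RVC and RVT, and *THY1* had 3 UMIs in RVC and none in RVT. *PRRX1* was lower in both than in S (2.46 and 1.57 against 21.4 CPM). Immune markers *PTPRC* and *CD3E* and the endothelial marker *CLDN5* had no UMI in any library, and the sums of the immune and endothelial markers were at most 1.01 and 2.00 CPM. Mural markers summed to 37.2, 38.9, 20.5 and 7.48 CPM, and keratinocyte markers, nearly all *KRT10*, to 238, 253, 80.7 and 116. The part of such cells in the result was not tested.

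Because deeper cells show more genes, 1500 UMIs were drawn from each cell (thinned cells), and 397 RVC and 845 RVT cells with fewer UMIs were left out of the shares. A cell without a UMI may still express the gene. All cells were of 1 line, so that no cells known to be without the genes were at hand, and the share that free RNA gives could therefore not be measured. After thinning, *SPARC* was found in 36.0% of S cells, 29.4% of RV, 18.5% of RVC and 82.4% of RVT cells, and *THBS1* in 4.12%, 10.1%, 1.30% and 50.6%. *COL9A3* was found in 28.6%, 19.4%, 0.0277% and 4.47%. *COL3A1* was found in 15.6% of RVC (14.8 to 16.4) and 1.17% of RVT cells (0.941 to 1.44), and *COL5A2* in 1.56%, 0.862%, 6.91% and 12.5%. Without thinning *COL3A1* was in 28.3% and *SPARC* in 41.1% of RVC cells, and *SPARC* in 93.0% of RVT cells.

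**Figure D3:**
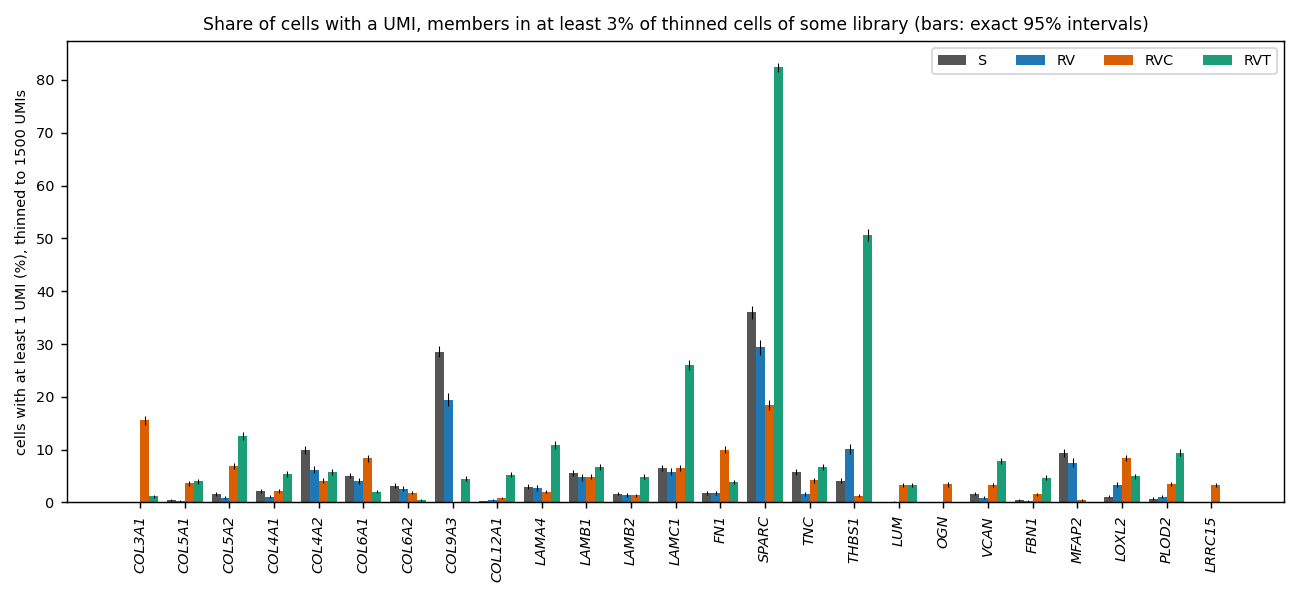
Share of cells with at least 1 UMI (y axis, %), each cell thinned to 1500 UMIs, for members found in at least 3% of thinned cells of some library (x axis), with 1 bar per library and exact 95% intervals. *SPARC*, *THBS1* and *LAMC1* stand out in RVT, *COL9A3* in S and RV, and *COL3A1*, *FN1* and *COL6A1* in RVC.

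Cells also differed in how many members they had. In thinned cells, 72.7% of RVT cells had at least 2 non-collagen members, against 19.5% in S, 16.6% in RV and 21.2% in RVC, and 4.18% of RVT cells had none. *SPARC* and *THBS1* were together in 3254 of the 7600 thinned RVT cells, where the product of their shares gives 3168 cells (ratio 1.03). For collagens, 7.28%, 4.41%, 8.08% and 7.22% of S, RV, RVC and RVT cells had at least 2. A single RVT cell had 39 *FN1* UMIs before thinning.

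Co-detection was described by the number of cells with both genes over the product of the shares, in thinned cells. Cells of 1 library are not replicates, and no p-value was computed. The gene pairs set beside the member pairs had the same minimum product but were not matched on it, and ratios vary more where the product is small. Like the counts of ratios between libraries, these counts describe the list and support nothing about it. In RVC 9 of 81 member pairs with a product of at least 20 cells had a ratio of at least 1.5, 11.1% beside 0.238% of all gene pairs (0.508% among genes found in at most 20% of cells). In RVT 3 of 160 member pairs did, 1.88% beside 0.263%, and among genes found in at most 20% of cells 3 of 82, 3.66% beside 0.448%, and no pair did in S (0 of 50 beside 0.231%, and 0 of 15 beside 0.496% among genes in at most 20% of cells) or in RV (0 of 24 beside 0.218%, and 0 of 13 beside 0.555%). The median ratio of member pairs was 1.18 in RVC, 1.06 in RVT, 1.06 in S and 1.12 in RV. Without thinning, 38 of 321 RVC pairs had such a ratio, 11.8% beside 3.09% of all gene pairs, and among genes in at most 20% of cells 28 of 205, 13.7% beside 5.87%. In RVT 4 of 290 pairs did, 1.38% beside 1.43%, and 3 of 180, 1.67% beside 2.27%, so that without thinning the RVT share was no higher than that of all gene pairs.

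In RVC, *FN1*, *LUM* and *DCN* were found in the same cells more often than the product of shares. Cells with *FN1* and *LUM* numbered 68 where the product was 23.8, a ratio of 2.86, and without thinning 231 where it was 103 (2.23). *LUM* was found in 9.41% of cells with *FN1* (7.38 to 11.8) and in 2.61% of cells without it (2.24 to 3.03). Cells with *FN1* and *DCN* numbered 42 against 14.4, and *LUM* and *DCN*, whose product was only 4.74 cells, were in 25 cells together. *THBS1* was also found with *FN1*, in 26 cells against 9.41 in RVC (2.76), and in 155 against 149 in RVT (1.04). *DCN* was found in 10.5% of cells with *LUM* (6.91 to 15.1) and in 1.70% of cells without it (1.41 to 2.03). In RVT cells with *LUM* and *DCN* numbered 1 where the product was 0.866, and *FN1* and *LUM* had a ratio of 1.43 (14 cells against 9.82).

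In RVC *LRRC15*, *POSTN* and *OGN* were found with *FN1* in fewer cells than the product of shares. In RVT *POSTN* went the other way, in 1.36% of cells with *FN1* and 0.0821% of the others, from 4 and 7 UMIs. Of RVC cells with *LRRC15* 1.66% had *FN1* (0.454 to 4.19) against 10.3% of cells without it (9.59 to 11.0), 4 cells where the product was 24.1. *FN1* and *OGN* were together in 7 cells where the product was 24.7, and *FN1* and *POSTN* in 8 where it was 19.2. Without thinning the ratios were 0.459 for *LRRC15*, 0.395 for *OGN* and 0.517 for *POSTN*. The direction thus stayed, and each ratio was less far from 1, that of *LRRC15* by the most. *LRRC15* and *POSTN* were together in 14 cells against 6.40, and *POSTN* was found in 5.81% of cells with *LRRC15* (3.21 to 9.55) and in 2.55% of the others (2.19 to 2.94). Each of these values is from 1 library of 1 culture.

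**Figure D4:**
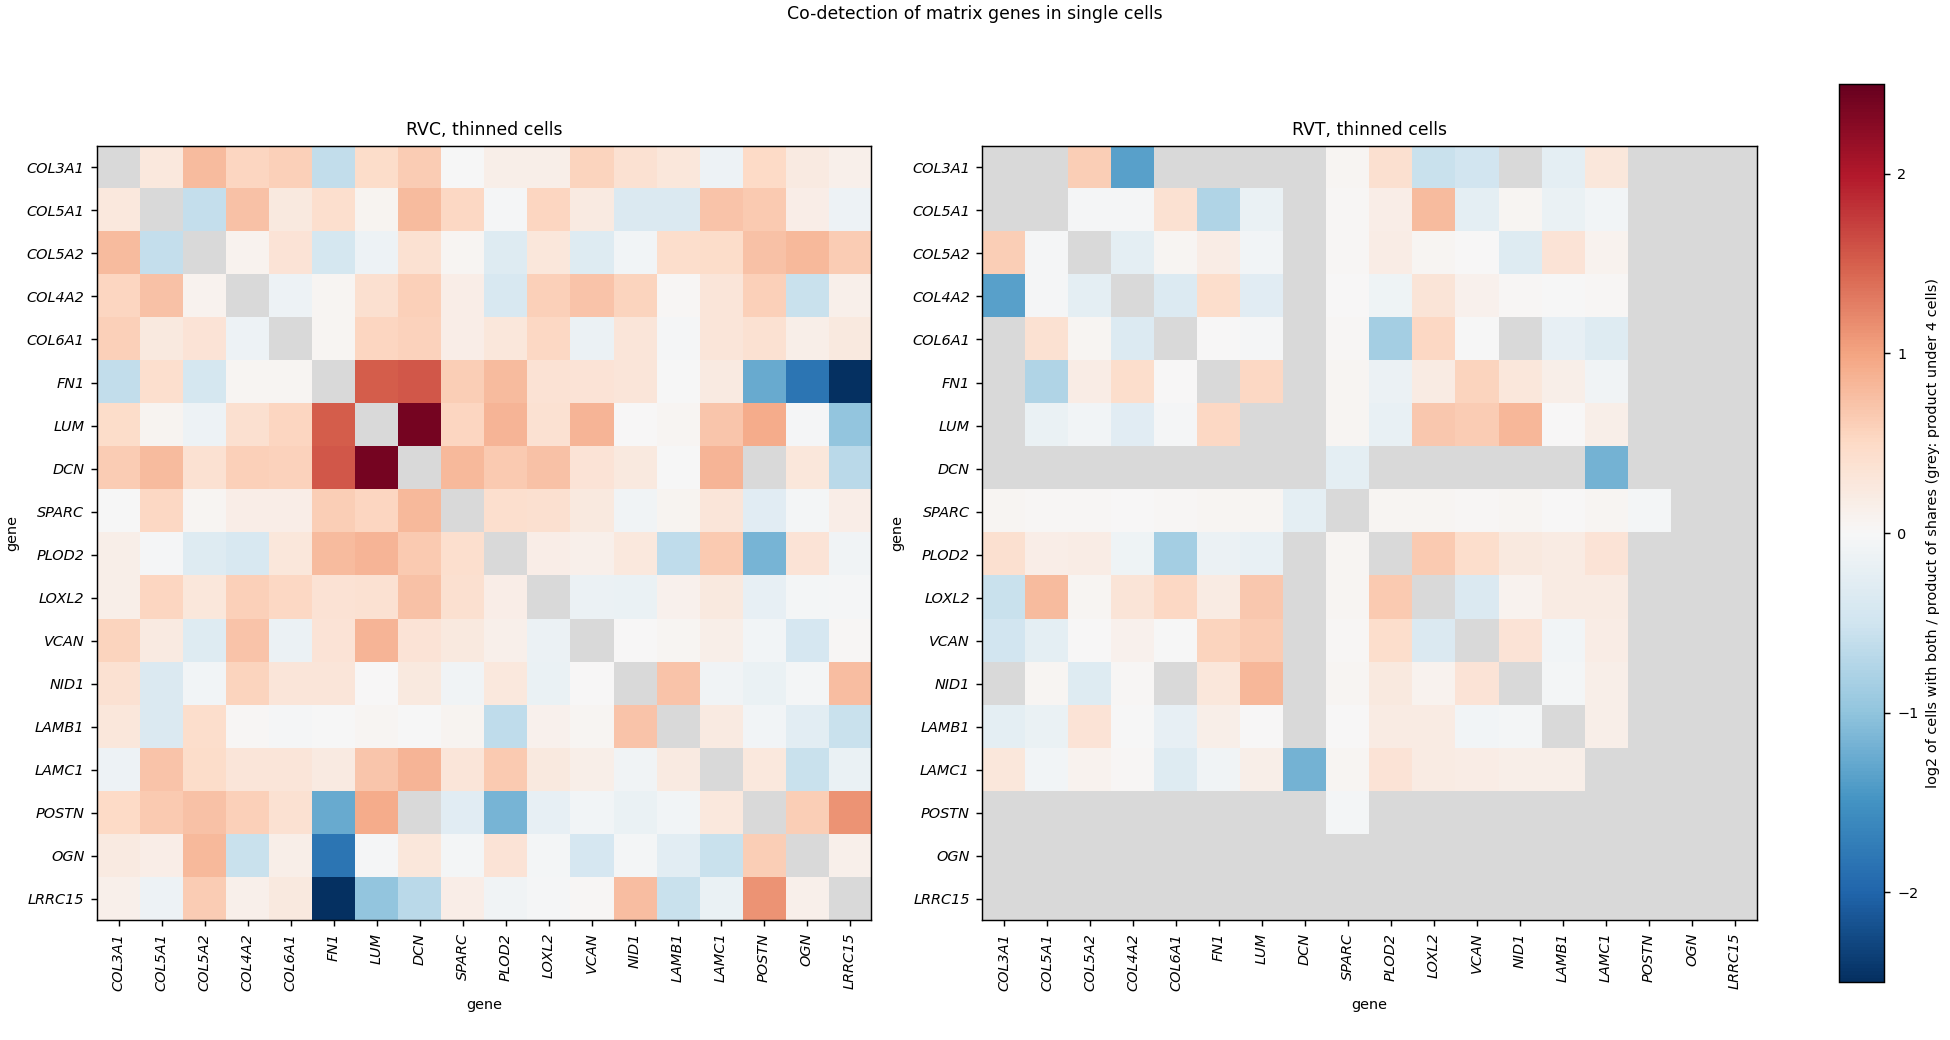
Co-detection in RVC (left) and RVT (right) thinned cells as log2 of cells with both genes over the product of the shares, for 18 members on both axes, red for more and blue for fewer cells than the product, gray where the product is under 4 cells. In RVC *FN1*, *LUM* and *DCN* form a red block and *FN1* is blue with *POSTN*, *OGN* and *LRRC15*, and RVT is paler.

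In RVC *COL3A1* and *COL5A2*, the convergent neighbors, were found together in 135 cells where the product was 77.8 (1.74), and without thinning in 528 where it was 351 (1.51). *COL5A2* was found in 12.0% of cells with *COL3A1* (10.1 to 14.0) and in 5.97% of the others (5.39 to 6.59). *COL3A1* with *COL4A1* had a ratio of 1.57 and with *COL6A1* of 1.51, with *DCN* it had 1.56 (35 cells against 22.4), and with *FN1* 0.657 (74 cells against 113). The other RVC pairs of at least 1.5 were *SPARC* with *DCN* (1.77, 47 cells against 26.6), *FN1* with *PLOD2* (1.73, 44 against 25.4), *FN1* with *SPARC* (1.53, 204 against 134) and *COL4A2* with *LOXL2* (1.51, 38 against 25.2).

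Of the pairs that form 1 protein or structure, *COL5A1* with *COL5A2* had a ratio of 0.663 in RVC (12 cells against 18.1) and 0.976 in RVT (37 against 37.9). *COL4A1* with *COL4A2* had 1.51 in RVC (10 cells against 6.60), 1.10 in RVT (26 against 23.6) and 1.70 in S (23 against 13.5), and without thinning 1.87, 1.27 and 1.25 (in S 431 cells against 346). *COL6A1* with *COL6A2* had 1.43 in RVC (16 cells against 11.2), 1.42 in RV (6 against 4.24) and 1.07 in S (11 against 10.3), and without thinning 1.48, 1.31 and 1.20. *LAMA4*, *LAMB1* and *LAMC1* had pair ratios between 1.11 and 1.14 in RVT, where the median over all member pairs was 1.06. *LAMA4* with *LAMB1* had 1.82 in RVC (13 cells against 7.13) and 1.52 in S (16 against 10.6), which became 1.23 and 1.17 (in S 303 cells against 259) without thinning, and *LAMA4* with *LAMC1* had 0.841 in RVC (8 against 9.52) and 0.968 in S. *NID1* with *LAMC1* had 0.941 in RVC (13 cells against 13.8), 1.11 in RVT (49 against 44.2) and 1.57 in S (10 against 6.36). Several of these pairs rest on few cells. The 3 RVT pairs past 1.5 were *COL12A1* with *LAMB1* (1.73, 46 cells against 26.6), *LOXL2* with *PLOD2* (1.57, 56 against 35.6) and *COL9A3* with *TNC* (1.502, 34 against 22.6).

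RVC cells were also split by a single gene, and levels were compared between cells with and without it. Cells with *LUM* (238 of 7226) had 98.0 CPM of *DCN* against 12.6 in the other cells, 375 of *FN1* against 83.7, and 280 of *COL3A1* against 140. Cells with *LRRC15* (241) had 44.3 CPM of *POSTN* against 18.1, 38.7 of *LAMA4* against 13.0 and 11.1 of *FN1* against 96.1. The values in cells with *LRRC15* rest on 16, 14 and 4 UMIs. Cells with the growth factor receptor gene *PDGFRA* (233) had 45.8 CPM of *LRRC15* against 21.9, 45.8 of *POSTN* against 18.1 and 28.6 of *FN1* against 95.4. The values in cells with *PDGFRA* rest on 16, 16 and 10 UMIs. In the same cells *COL3A1* had 172 CPM against 144, *LUM* 28.6 against 25.5 and *OGN* 25.8 against 23.7. *DCN* had 8.58 CPM against 15.6, from 3 UMIs. Cells with *COL3A1* (1126) had 87.0 CPM of *COL5A2* against 41.3 and 28.4 of *DCN* against 13.0. The median UMI number before thinning was 3617.5 with and 4126 without *LUM*, 3894 with and 4119 without *LRRC15*, 3547.5 with and 4237.5 without *COL3A1*, 4221 with and 4106 without *FN1*, and 3504 with and 4128 without *PDGFRA*.

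**Figure D5:**
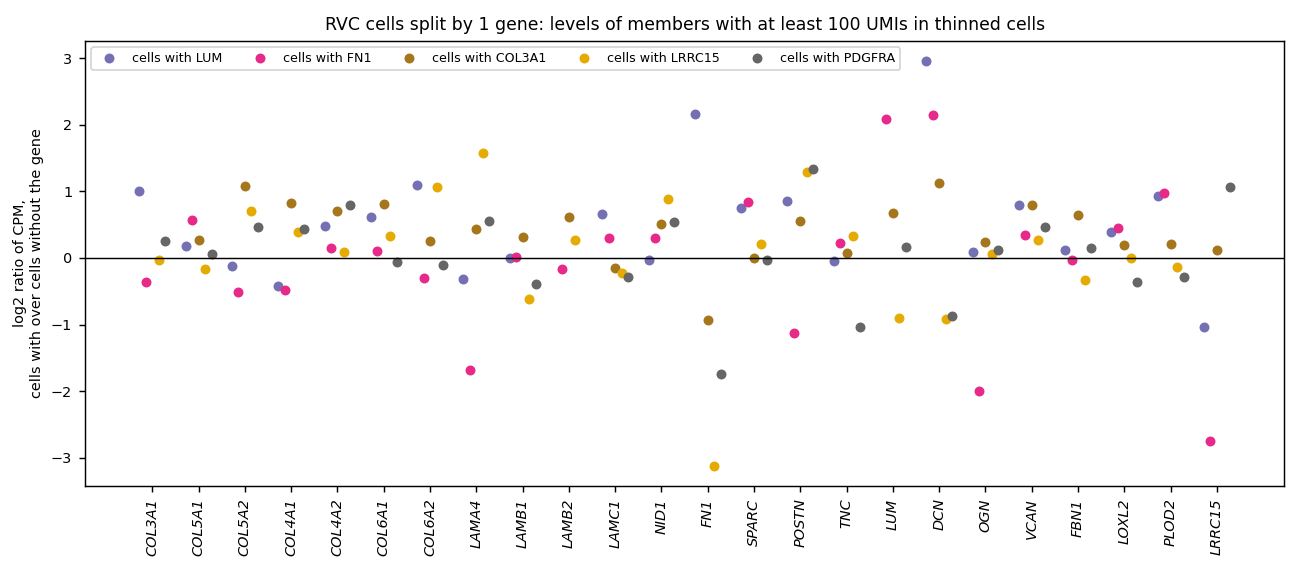
RVC thinned cells split by *LUM*, *FN1*, *COL3A1*, *LRRC15* or *PDGFRA*: log2 ratio of CPM (y axis) in cells with over cells without the gene, for members with at least 100 UMIs (x axis), 1 point per split gene, left out where cells with the gene had fewer than 3 UMIs. *DCN* and *FN1* lie highest for *LUM* cells, whereas *FN1* lies lowest for *LRRC15* cells.

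Other genes of these cells were listed after their values were seen. In cells with *FN1* the acute-phase gene *SAA1* had 166 CPM against 23.7 in the others and the activin gene *INHBA* 336 against 75.2. In cells with *LRRC15* the collagenase gene *MMP1* had 3173 CPM against 1276 and the stromelysin gene *MMP3* 910 against 296, and in cells with *PDGFRA* *MMP1* had 3119 against 1280. In cells with *COL3A1* *IGFBP5* had 698 CPM against 163 and the hyaluronan-degrading *CEMIP* 71.6 against 14.2.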

How the data were processed

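Single-cell RNA sequencing counts of 4 A375 cultures, S, RV, RVC and RVT, were analyzed with 1 library each. Library preparation by the authors used the 10x Genomics Chromium system, and per the labels reads were processed with bcl2fastq 2.20.0.422 and Cell Ranger on GRCh38. The deposited values are raw UMI counts for each gene in each barcode, and the annotation, the filters before deposit and the use of strand are not given in the sources used here.

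Barcodes with at least 500 genes and at most 20% mitochondrial UMIs were kept, and those with the highest scrublet scores (scanpy 1.11.5) were removed at 0.8% per 1000 barcodes, since the caller's own threshold marked at most 5 per library. UMIs of the kept cells, 25407545 to 58611860 per library, were summed per gene and expressed per 1000000. Thinning to 1500 UMIs used random seed 1. With 1 library per condition no test was possible, and ratios against 0 UMIs were computed at 3 UMIs and are bounds. Positions are those of GENCODE 29 on GRCh38. The calculation of ratios was tested on simulated library sums. Python 3.11.15 was used, along with scipy 1.17.1, numpy 2.4.6 and pandas 2.3.3. TMM factors came from edgeR 4.0.16 in R 4.3.3, and figures from matplotlib 3.10.9.

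The members, the gene lists, the marker lists and the motifs were chosen with earlier results of these data known. Members with at least 10 CPM in some library were given in every library, and from each further list at most 3 genes with the highest and 3 with the lowest ratio that had at least 20 CPM in the higher library. Alternatives were all barcodes, at least 1000 genes per cell, no doublet removal, TMM factors, library sizes without ribosomal protein and mitochondrial genes, equal weight of cells, filters of 1 and 10 CPM, a 1.5-fold limit, centring within 20 bins of GC content, unthinned cells and another seed. The mural marker RGS5 matched more than 1 identifier and was left out.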

Additional observations from a re-analysis of the deposited data

Results flagged for a closer look

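Of the members with at least 3 CPM in the mean, 6 were at least 2-fold higher than S in 1 treated library and at least 2-fold lower than S in another, 6 of 33 beside 2.67% of all 10302 genes at this level. The difference was not tested, since each condition is 1 library, and the values being compared share the S library. *THBS1* differed most, by 5.97 on the log2 scale between RVT and RVC and by 2.83 between RV and RVC. *SPARC* differed by 3.17 between RVT and RVC. The other 4 genes were past 2-fold lower in RV: *COL5A2* differed by 3.21 between RVC and RV and by 4.20 between RVT and RV, *COL8A1* by 4.93, *VCAN* by 3.10 and *COL4A1* by 2.30 between RVT and RV. In RV the log2 ratios of *COL5A2*, *COL4A1* and *VCAN* were -1.01, -1.01 and -1.03, close to the limit, and with equal weight of cells they were -0.95, -0.97 and -0.97. The log2 ratio of *COL4A1* in RVT over S, 1.30, was under 2-fold with TMM factors (0.78) and after GC centring (0.51).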

How the results depend on the processing

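No paired analysis was possible because each condition has 1 library, and for the same reason no replicate could be left out. Of 79 ratios past 2-fold among members with at least 3 CPM in the mean, 75 stayed past it with TMM factors, 75 with equal weight of cells and 70 after GC centring. The ratio of *POSTN* in RV over S, which rests on 2 and 4 UMIs, reversed to a log2 value of -0.068 with equal weight of cells, and that of *HSPG2* in RVC over S to 0.71 after GC centring. The cause was not tested.

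In RV over S, 1 collagen in place of 3 was lower with equal weight of cells, and at 1.5-fold 1 collagen was higher and 6 were lower and 5 other members were higher. In RVC over S, a filter of 10 CPM left 5 other members higher and 3 lower in place of 9 and 6, and a filter of 1 CPM gave 4 collagens lower in place of 2. In RVT over S, 2 other members in place of 1 were lower with TMM factors, with a filter of 1 CPM and at 1.5-fold. In RVT over RVC, 2 other members in place of 6 were lower at 10 CPM, a filter that tests fewer genes. Members found in at least 1% of RV cells were 18 in thinned and 29 in unthinned cells, and RVC pairs with a co-detection ratio of at least 1.5 were 9 in thinned and 38 in unthinned cells, where more pairs reach the minimum of 20 cells. With another seed the RVC pairs were 12 of 84 and the RVT pairs 2 of 162. Under these changed settings the share over all genes was computed only for pairs in unthinned cells. The other changed counts have no such share beside them, so a shift of the list and a shift of all genes cannot be told apart. Depth limits members at a few UMIs, and differences between cultures of 1 condition are unknown.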
